A study of Mus musculus with 2 samples.

Results

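The cytosolic ribosomal protein genes of mouse liver are described here across 2 RNA-sequencing libraries. Members were the genes whose symbol is Rpl or Rps followed by a number, with an optional a, x or l, together with Rplp0, Rplp1, Rplp2 and Rpsa. This gave 79 of the 33224 gene symbols in the data, 47 named for the large (60S) and 32 for the small (40S) ribosomal subunit, each with 1 row. Names that end in -ps, which mark pseudogenes, were not counted as members.

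Livers came from male C57BL/6 mice, either wild-type (WT) or PPARβ-null (KO), 48 hr after partial hepatectomy (PH), the surgical removal of most of the liver, after which the remnant grows back. Both groups were fed ad libitum and their labels give an age of 4 months, whereas the series' design text and the methods give different ages. Each genotype had 1 library, and it is not stated whether a library came from a single mouse or a pool, so no value has an error between mice and no test of genotype was possible. Values are FPKM, fragments per kilobase of transcript scaled to the mapped fragments of the library. They are per length, which allows comparison between genes, with less certainty where reads match several places in the genome.

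The cytosolic ribosome is built from ribosomal RNAs and a set of ribosomal proteins that are needed in nearly equal amounts. Most mRNAs for these proteins start with a 5′ terminal oligopyrimidine (TOP) tract, through which mTOR signalling sets their translation, and growing cells, among them hepatocytes of the regenerating liver, make many new ribosomes before they divide. The mRNA level measured here shows neither the translation of these mRNAs nor the number of ribosomes.

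Ppard, the targeted gene, had an FPKM of 2.67 in the library labelled WT and 2.42 in the library labelled KO, a WT/KO ratio of 1.10. This value covers the whole locus and does not separate intact from disrupted transcripts, so it does not check the labels, and each direction given here rests on them. On a transcript of 1 kb, an FPKM of 1 stood for about 54.4 (WT) and 56.1 (KO) fragments, as estimated from the lowest values of single-exon genes. The median log2 KO/WT of the 11025 loci that averaged at least 1 FPKM was -0.24, so most genes had lower values in the KO library. Summed FPKM of the hepatocyte markers was 11350 (WT) and 13270 (KO), with 5 of the 7 measured higher in KO. Those of macrophages (36.0 and 23.4 FPKM), endothelial cells (26.6 and 15.7), stellate cells (90.8 and 55.4), cholangiocytes (5.33 and 3.03), neutrophils (12.9 and 6.91, with 2 of 5 at 0), lymphocytes (0.490 and 0.279) and erythroid cells (507 and 419) were lower in KO. That of pancreatic acinar cells was 8.77 and 18.8, nearly all of it from Cela1, with 3 of 5 markers at 0. The part of these cells in the values of ribosomal protein genes was not tested, and in bulk tissue fewer cells of a type and less RNA per cell cannot be told apart.

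Ribosomal protein mRNAs were lower in the KO library almost without exception, and by a similar amount. Of the 76 members averaging at least 1 FPKM, 75 were lower in KO, against 75.7% of all loci at that level. All 76 also averaged at least 50 FPKM, and among the 1312 loci at that level, a threshold chosen after the values were seen, 66.6% were lower in KO. The median log2 KO/WT of the members was -0.34, a WT/KO ratio of 1.26, beside -0.24 for all loci and -0.19 for the abundant loci. FPKM summed over all members was 14700 in the WT library, or 2.70% of the total, and 11590 in the KO library, or 2.10%. The total leaves out 21 rows marked HIDATA, which are listed at 0, so both shares may be too high.

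The shift was small for each gene. Only Rplp0 was more than 1.5-fold lower in KO, 1 of 76 members beside 20.2% of all loci and 14.1% of abundant loci. No member was more than 1.5-fold higher, beside 4.15% of all loci and 9.38% of abundant loci. At 1.2-fold, 57 of the 76 members were lower, against 47.2% of all loci and 42.4% of abundant loci. Values 15 to 30% lower in KO were seen in 56 of the 76 members, whereas 26.9% of all loci and 28.0% of abundant loci lay in that band. The interquartile range of the members spanned 0.12 on the log2 KO/WT scale, that of all loci 0.48 and that of abundant loci 0.54, so the spread over all loci was 4.01 times that of the members.

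The direction depended in part on how the libraries were scaled to each other. Relative to the all-loci median, 60 members were lower and 16 higher, that is 78.9% lower beside 50.5% of all loci, and the members' median log2 KO/WT became -0.10. With equal upper quartiles 64 members, or 84.2%, were lower beside 52.0% of all loci, and the median was -0.11. The 16 members above the all-loci median, all to the right of Rps21 in the plot of ranked ratios, changed direction when the ratios were centred, except Rps27, which was higher in KO before and after.

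**Figure D1:**
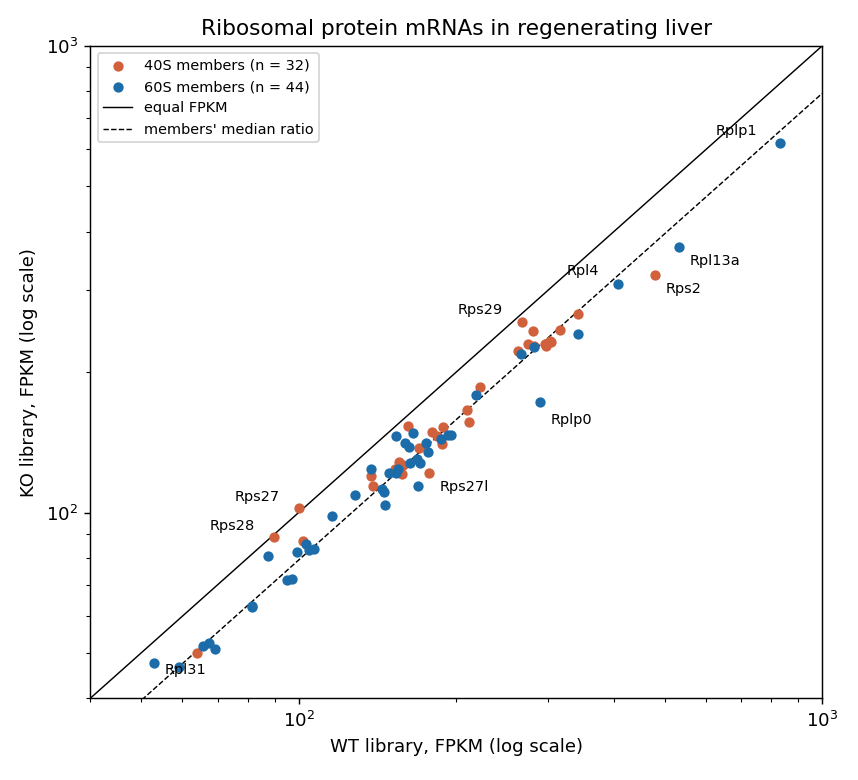
FPKM of the 76 expressed ribosomal protein genes in the WT library (x axis) and the KO library (y axis), both on log scales, with 60S members in blue and 40S members in orange. All points but Rps27 lie below the solid line of equal FPKM and most lie along the dashed line of the members' median WT/KO ratio of 1.26, while Rplp0 lies farthest below it.

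Levels differed between members far more than between genotypes. Rplp1, an acidic protein of the stalk of the large subunit, was highest, with 832 FPKM in WT and 620 in KO. Next came Rpl13a, a 60S protein also known for a role in translational silencing outside the ribosome, with 533 and 370 FPKM. Rps2, a 40S protein near the entry of the mRNA channel, had 480 and 323 FPKM. The order of these 3 was the same in both libraries. Rpl4, which reaches into the tunnel through which the new protein leaves the ribosome, had 407 and 309 FPKM, and Rps4x, encoded on the X chromosome, had 342 and 266 FPKM.

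At the lower end, Rpl31 had 52.9 FPKM in WT and 47.6 in KO, and Rpl21 had 59.0 and 46.6 FPKM. Both are 60S proteins, Rpl31 lying at the exit of the tunnel, and they changed places as the lowest expressed member between the libraries. The highest member was 15.7 times the lowest in WT and 13.3 times in KO, and the interquartile range of the members lay between 125 and 232 FPKM in WT and between 104 and 181 FPKM in KO. Of the 10 highest members in WT, 8 were among the 10 highest in KO. Across the 76 members the log2 FPKM of the libraries had a Pearson's r of 0.986 and a Spearman's rho of 0.968, a description over genes that share library, transcript length and sequence copies.

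The largest difference was that of Rplp0. This protein forms the base of the stalk that recruits the elongation factors, and its gene (chromosome 5, 116009476 to 116013736, NCBIM37) had 289 FPKM in WT and 172 in KO, 40.3% lower. Its 95% counting interval for WT/KO ran from 1.64 to 1.71. Such intervals were computed from estimated fragments, cover counting error only and say nothing of differences between mice. Those of 30 of the 76 members held the members' median ratio of 1.26, so the other members differed from it by more than this estimated counting error. Rplp1 and Rplp2 are the paired proteins bound to Rplp0, and their WT/KO ratios were lower, 1.34 for Rplp1 and 1.12 for Rplp2, whose FPKM was 165 in WT and 148 in KO. The genes of the stalk thus spread from -0.74 to -0.16 on the log2 KO/WT scale, within a span of all members from -0.74 to 0.03.

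The next members lay just outside 1.5-fold. Rpl30, a 60S protein, had 169 FPKM in WT against 114 in KO, a WT/KO ratio of 1.48, and Rps2 had the same ratio to this precision. Rps27l, the paralog of Rps27 and a known p53 target, had 177 and 122 FPKM, a ratio of 1.46, and Rpl13a a ratio of 1.44. The rows of Rpl30, Rps2 and Rpl13a also name snoRNAs encoded in their introns, and that of Rpl13a names Flt3l too, so their values cover these genes as well. Only 5 members, these with Rplp0, were more than 30% lower in KO, and 15 were less than 15% lower or, for Rps27, higher.

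**Figure D2:**
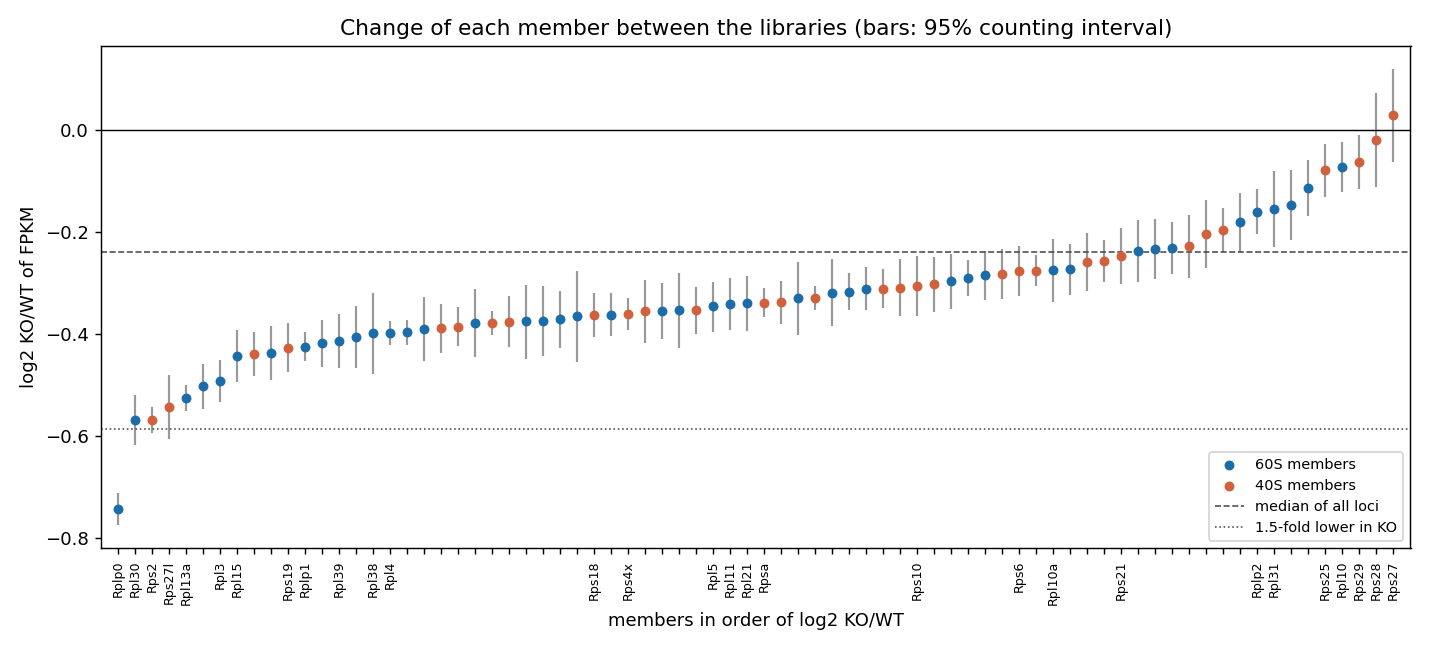
The log2 KO/WT of FPKM (y axis) of the 76 expressed members in order of their ratio (x axis), with 60S members in blue, 40S members in orange, bars for the 95% counting interval and names for some of the members. The points form a long flat middle around the members' median of -0.34, with Rplp0 alone below the dotted line of 1.5-fold and Rps27 alone above 0, and the 16 points above the dashed all-loci median would be higher in KO after centring on it.

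Several small 40S proteins stood at the other end. Rps27, a zinc-binding protein of the 40S subunit, had 100 FPKM in WT and 102 in KO and was the only member higher in KO. Rps28 had 89.8 and 88.6 FPKM. These were the 2 members whose counting intervals of WT/KO, 0.920 to 1.04 for Rps27 and 0.951 to 1.08 for Rps28, held a ratio of 1. Rps29, another zinc-binding 40S protein, had 268 and 256 FPKM. Rpl10, which joins the large subunit late in its assembly, had 153 and 146 FPKM, and Rps25, a 40S protein needed for initiation at some viral internal entry sites, had 162 and 153 FPKM. With equal upper quartiles or centred ratios these 5 were higher in KO.

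Rps27 and Rps27l encode alternative versions of the same ribosomal protein and lay at nearly opposite ends of the members. Rps27 was higher in KO by a log2 KO/WT of 0.03, while Rps27l was lower by a log2 KO/WT of -0.54. In WT, Rps27l exceeded Rps27 (177 against 100 FPKM), and in KO the levels were closer (122 against 102). Their coding sequences, from GENCODE vM1 on NCBIM37 (Rps27 on chromosome 3, 90016593 to 90017573, minus strand, and Rps27l on chromosome 9, 66793893 to 66797323, plus strand), show how far reads of the pair can be told apart, and bases that differ between them are in capitals.
Rps27: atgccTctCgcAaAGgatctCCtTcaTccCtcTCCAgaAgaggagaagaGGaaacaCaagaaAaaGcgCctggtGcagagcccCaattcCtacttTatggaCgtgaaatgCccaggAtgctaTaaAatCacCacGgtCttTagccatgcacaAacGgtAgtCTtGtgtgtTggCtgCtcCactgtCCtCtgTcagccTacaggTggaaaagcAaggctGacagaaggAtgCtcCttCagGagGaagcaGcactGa
Rps27l: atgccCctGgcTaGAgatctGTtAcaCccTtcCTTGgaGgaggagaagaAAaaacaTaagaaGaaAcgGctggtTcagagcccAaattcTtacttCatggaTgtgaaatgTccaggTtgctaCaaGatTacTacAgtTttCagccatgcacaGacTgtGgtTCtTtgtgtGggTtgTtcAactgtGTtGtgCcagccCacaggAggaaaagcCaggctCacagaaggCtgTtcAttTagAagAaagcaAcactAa
Of the 255 aligned bases, 194 are the same and 61 differ, an identity of 76.1%, and the longest run shared at the same position is 11 bases. The coding sequences of the pair thus share no stretch as long as a read of 100 bases. Rps27 nevertheless has copies elsewhere, as 99.6% of the 100-base windows of its transcript occur a second time in the genome, whereas none of the windows of Rps27l does. How reads that match several copies were placed is not known. The level of Rps27 beside Rps27l, and the smaller gap in KO, may therefore partly reflect this placement, which was not tested.

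The other paralogs ending in l were hardly detected. Rpl10l, known from the testis, was listed at 0 FPKM in both libraries, Rpl39l, also known from the testis, had 0.0355 FPKM in WT and was listed at 0 in KO, and Rpl3l, known from striated muscle, had 0.0335 and 0.0224 FPKM. Their partners were abundant. Rpl10 is given above, Rpl39, a short protein in the wall of the exit tunnel, had 196 and 147 FPKM, and Rpl3, a core 60S protein, had 146 and 104 FPKM. The coding sequence of Rpl10l is 84.8% identical to that of Rpl10, and that of Rpl39l is 85.3% identical to that of Rpl39. These 3 paralogs are the members left out by the minimum of 1 FPKM.

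The difference was shared by both subunits and by the parts of each. The median log2 KO/WT was -0.35 over 44 60S members and -0.31 over 32 40S members, and the SD within the groups was 0.12 and 0.13. Within the 40S subunit, all 14 members of the head and 16 of 17 of the body were lower in KO, with medians of -0.30 and -0.33. All 8 members around the exit tunnel were lower, with a median of -0.32. With equal upper quartiles the medians of the subunits were -0.13 for 60S and -0.08 for 40S.

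Members known for a role in signalling or disease are given next. Rpl5 (65.8 FPKM in WT and 51.8 in KO) and Rpl11 (154 and 121 FPKM), which bind 5S rRNA and also Mdm2, the inhibitor of p53, had WT/KO ratios of 1.27 each. Rps6, the 40S protein phosphorylated by S6 kinase, had 156 and 128 FPKM, a ratio of 1.21. Rpsa, also known as the laminin receptor, had 209 and 166 FPKM, a ratio of 1.26. Rps19, the gene most often mutated in Diamond-Blackfan anemia, had 188 and 140 FPKM, a ratio of 1.34. The 10 Diamond-Blackfan genes on the list used here were lower in KO, beside 75.7% of all loci, with log2 KO/WT between -0.44 and -0.26. That list is not complete, since Rps27, Rps28, Rps29 and Rpl31, which have also been tied to the disease, are not on it, and their log2 KO/WT was 0.03, -0.02, -0.06 and -0.15.

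Ribosomal proteins that the naming rule does not take gave mixed values. Fau, which encodes the 40S protein eS30 fused to a ubiquitin-like protein, had 138 and 104 FPKM. Rpl22l1, a paralog of Rpl22, had 92.4 and 66.3 FPKM. Rpl36al, a paralog of Rpl36a, had 234 and 225 FPKM. Rpl7l1 was close to equal, with 25.5 and 26.2 FPKM. None of these was more than 1.5-fold apart.

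Other gene lists of the translation machinery are set beside the shares of all loci, 75.7% lower in KO and 20.2% more than 1.5-fold lower. Of 76 mitochondrial ribosomal proteins, which form a separate ribosome and are transcribed as other nuclear genes, 70 (92.1%) were lower in KO and 7 (9.21%) were more than 1.5-fold lower. Their median log2 KO/WT was -0.27, with an interquartile range of 0.27. Mrpl12, the most abundant, had 76.3 and 53.8 FPKM, Mrpl52 had 64.3 and 64.4 FPKM, and the largest ratio was that of Mrps6, with 16.95 and 8.22 FPKM. Among 19 other genes whose mRNAs carry a TOP tract, 17 (89.5%) were lower and 2 (10.5%) more than 1.5-fold lower, with a median of -0.33. The largest ratio in that list was that of Hnrnpa1, an RNA-binding protein, with 29.2 and 13.0 FPKM, followed by Npm1, a nucleolar chaperone, with 65.2 and 39.6 FPKM. Eef1a1, the factor that brings aminoacyl-tRNA to the ribosome, was the most abundant, with 1537 and 1293 FPKM, while Tpt1, another abundant TOP mRNA, had 467 and 487 FPKM.

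All 7 genes listed as elongation factors, Eef1e1 among them by its symbol only, were lower in KO. Their median log2 KO/WT was -0.22 and became 0.0037 with equal upper quartiles and 0.015 after centring. Of 55 genes listed by their Eif symbols as initiation factors and regulators, 49 (89.1%) were lower and 5 (9.09%) more than 1.5-fold lower, with a median of -0.24. This list includes Eif2c1, Eif2c2 and Eif2c3, which encode Argonaute proteins rather than initiation factors. Eif2c3, with a WT/KO ratio of 1.62, is among the 5. Eif5a, which aids elongation and is counted in both lists, had 313 and 234 FPKM, and Eif1 had 205 and 230 FPKM. Of 32 ribosome biogenesis genes, 26 (81.2%) were lower and 5 (15.6%) more than 1.5-fold lower, shares near those of all loci, among them Nhp2, a protein of the H/ACA snoRNPs, with 27.5 and 14.9 FPKM. The median of this list, -0.21, became 0.020 with equal upper quartiles and 0.032 after centring.

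Genes of the mTOR pathway, which controls translation of the TOP mRNAs, had a median log2 KO/WT of -0.40 with an interquartile range of 0.52. This median became -0.18 with equal upper quartiles and -0.16 after centring. Of 16 genes 15 (93.8%) were lower, beside 75.7% of all loci, and 5 (31.2%) more than 1.5-fold lower, beside 20.2%. Ddit4, a stress-induced inhibitor of mTORC1, had 7.31 FPKM in WT and 1.14 in KO, and Eif4ebp1, which blocks the cap-binding factor eIF4E, had 33.4 and 17.3 FPKM. Mtor itself had 8.37 and 6.99 FPKM, and Rheb, its activator, had 33.8 and 23.9 FPKM. The other 3 that were more than 1.5-fold lower were Mlst8, a subunit of the mTOR complexes, and the sestrins Sesn1 and Sesn2, which restrain mTORC1. All 5 transcription factors listed for ribosomal protein genes were lower, from Sp1 (6.41 and 6.35 FPKM) to Tbpl1 (4.79 and 2.91 FPKM), with Yy1 the most abundant (17.9 and 13.8 FPKM), and their median of -0.37 became -0.14 with equal upper quartiles and -0.13 after centring. No gene in these lists, other than the cell type markers, was more than 1.5-fold higher in KO.

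**Figure D3:**
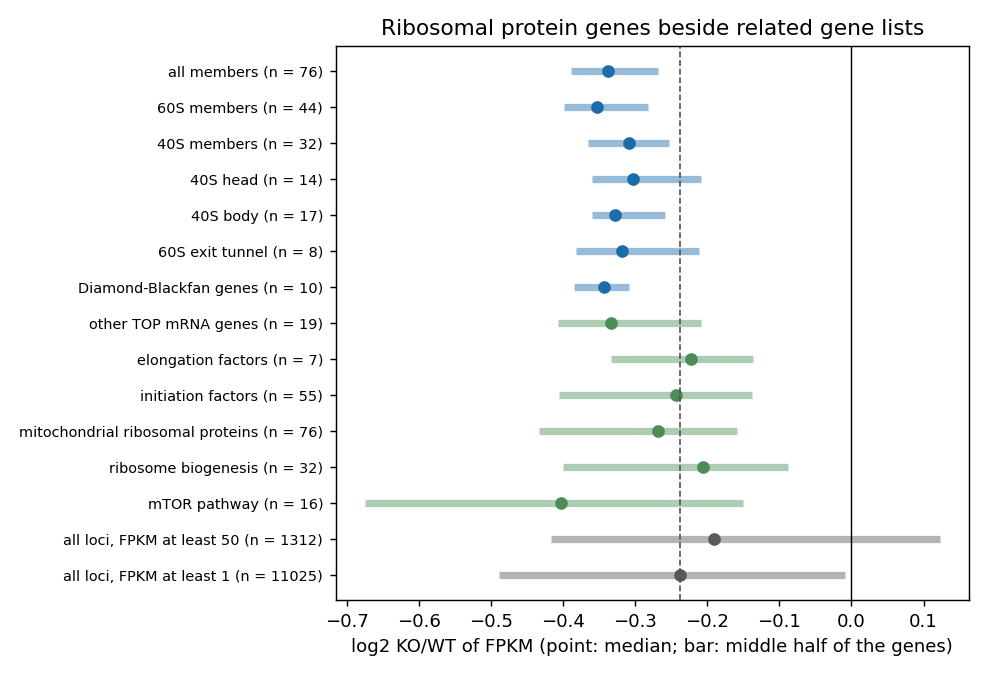
Median log2 KO/WT of FPKM (points, x axis) and interquartile range of the genes (bars) for the members and their groups in blue, related gene lists in green and all loci in grey, with the number of genes and the all-loci median as a dashed line. The bar of all members is 0.12 wide, beside 0.48 for all loci, and lies wholly to the left of the dashed line at -0.24, a side that the elongation factor and ribosome biogenesis medians do not share.

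Ribosomal protein genes have many processed pseudogenes, and reads may match more than one copy. In the genome the files use (NCBIM37), a median of 45.1% of the 100-base windows of a member's transcript had an exact copy at another place, 36 of the 76 expressed members had copies of more than 50% of their windows, and 4, Rps27l among them, had none. How the authors placed reads that match several copies is not given in the sources used here. All of the 40 members with at most 50% of windows copied were lower in KO, beside 75.7% of all loci. Their median log2 KO/WT was -0.35. The share is taken over the whole main transcript, and a long transcript lowers it. In Rps13, 349 of 1216 windows (28.7%) were copied, beside a coding sequence of 423 nt. A low share thus does not mean that the coding sequence is free of copies. The 4 members without copied windows ranged from -0.54 to -0.15. Over all 76, the share of copied windows had a Spearman's rho of 0.175 with log2 KO/WT and -0.325 with mean FPKM, both descriptions over genes that share the libraries.

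Pseudogene rows followed the members they are named after. Of 156 pseudogene symbols, 77 averaged at least 1 FPKM, and 69 of these were lower in KO as deposited, beside 75.7% of all loci. The summed FPKM was 2740 in WT and 2306 in KO. The 17 pseudogenes with at least 50 FPKM are named after 16 members. Their log2 KO/WT differed from that of the parent by a median of 0.018 and by at most 0.078, and Pearson's r across the 17 was 0.962, or 0.932 without the 2 whose parent was farthest from the median. Rpl10-ps3 and Rpl10-ps1 had WT/KO ratios of 1.06 each beside 1.05 for Rpl10, and Rpl3-ps1 had 1.45 beside 1.41 for Rpl3. Rpl15-ps3 had 1.35 beside 1.36 for Rpl15. Between 33.3% (Rpl15) and 97.8% (Rps12) of the windows of these parents have an exact copy elsewhere, and where sequence is shared, transcripts of a pseudogene and of its parent cannot be told apart. The pairing was examined after the values were seen.

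**Figure D4:**
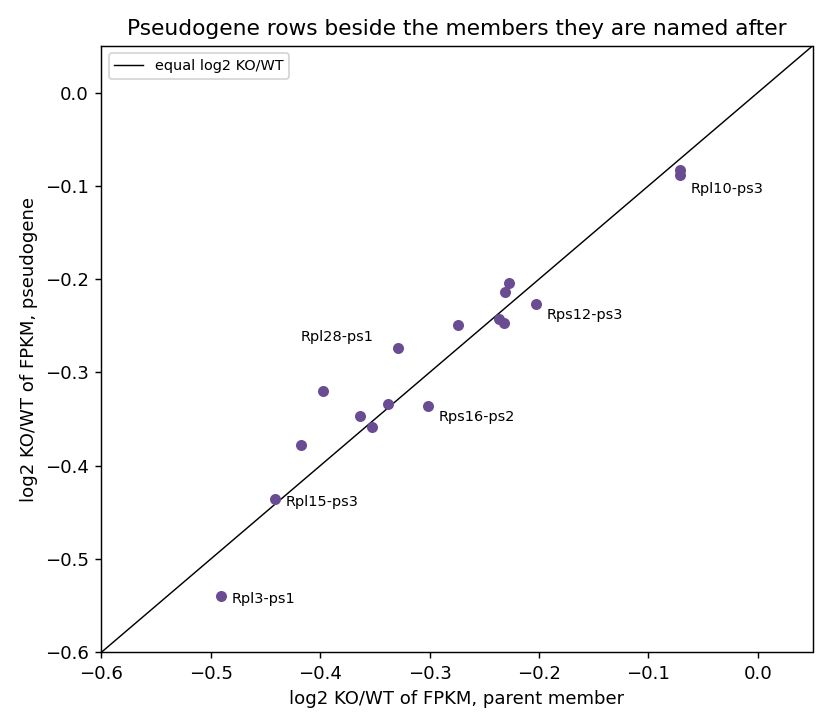
The log2 KO/WT of FPKM of 17 pseudogene rows with a mean FPKM of at least 50 (y axis) against that of the ribosomal protein gene each is named after (x axis), with 1 point per pseudogene and a line of equal values. The points lie along the line, within 0.078 of it, from Rpl3-ps1 at the lower end to the Rpl10 pseudogenes at the upper end.

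The 3 members highest in log2 KO/WT had short transcripts, but other short transcripts did not stand apart. Among the 5 members with a transcript of at most 400 nt, a limit set after the values were seen, were Rps27 (345 nt), Rps28 (382 nt) and Rps29 (390 nt), and the median log2 KO/WT of the 5 was -0.06. The others were Rpl38 (371 nt), with 146 FPKM in WT and 111 in KO and a log2 KO/WT of -0.40, and Rps21 (394 nt), with a log2 KO/WT of -0.25. Just above the limit, Rpl36 (404 nt) and Rps24 (434 nt) had a log2 KO/WT of -0.38 and -0.37. The other 71 members had a median of -0.34. Across all 76 members the length of the main annotated transcript had a Spearman's rho of -0.217 with log2 KO/WT. These lengths ranged from 345 to 3721 nt. The longest, that of Rps15a, holds a coding sequence of 393 nt, so it need not be the length of the transcript expressed. The part of transcript length and of sequence copies in these values was not tested.

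**Figure D5:**
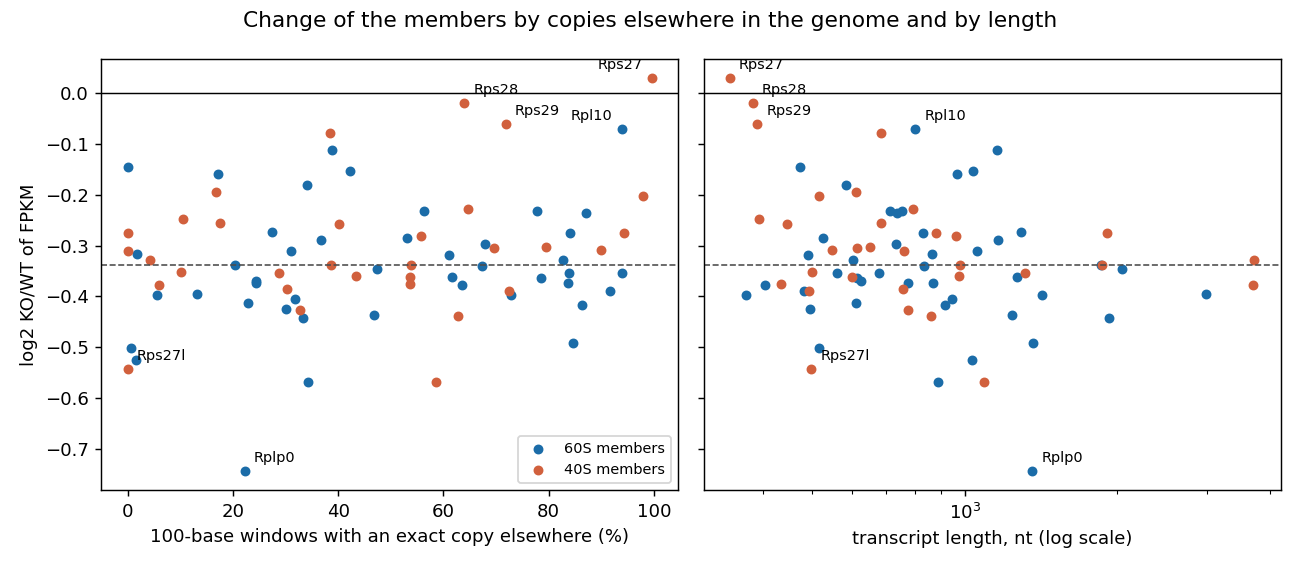
The log2 KO/WT of FPKM of the 76 expressed members (y axis) against the percent of 100-base transcript windows with an exact copy elsewhere in the genome (left x axis) and transcript length in nt on a log scale (right x axis), 60S members in blue and 40S members in orange. Rps27, Rps28 and Rps29 are among the shortest transcripts and lie near 0. Members with a small share of copied windows, such as Rps27l at 0%, lie on both sides of the dashed members' median.

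The members lie on 19 chromosomes, with 14 on chromosome 7, 7 on chromosome 17 and 4 on the X chromosome. Of those on chromosome 17, 6 lie within 10 Mb of Ppard. Rpl10a, a 60S protein gene about 27 kb from the targeted gene, had 103 FPKM in WT against 85.5 in KO, a WT/KO ratio of 1.21, and Rps10, about 596 kb away, had 153 and 124 FPKM, a ratio of 1.24. Farther off were Rps2, Rps28 and Rps18 (295 and 230 FPKM, ratio 1.29), and Rpl3l. The genes near Ppard thus include members from both ends of the ranking.

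On rows that name a further gene, 17 members in all, the values belong to the joint locus. In 15 of them the other gene is a snoRNA, and in the others it is Commd5 for Rpl8 and the gene model Gm11629 for Rpl19. Their median log2 KO/WT was -0.35, and that of the 59 members on rows of their own was -0.33.

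Promoters of ribosomal protein genes are known to start transcription at a C within a pyrimidine tract. RefSeq promoter windows, from 250 bases before to 50 bases after the annotated start on GRCm38.p6, were at hand for 58 members and 27025 genes. In the 50 bases on either side of the start, CTTTCC on the strand of the gene was found in 32.8% of these members and 5.43% of all genes, and CTCTTTCC, which contains it, in 12.1% and 0.529%. The shorter CTTCC, which neither of these contains, was found in 46.6% and 22.2%. CCGGAAG, a core of ETS family sites searched on both strands of the whole window, was found in 41.4% and 9.93%, and some of its matches on the reverse strand overlap CTTCC. GCCATNTTG, a form of the YY1 site, was found in 5.17% and 2.90%, on both strands of the whole window. TATAAA on the strand of the gene was found within 50 bases of the start in 6.90% of members and 4.05% of genes.

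The windows of 5 members at the ends of the ranking, chosen after their values were seen, are given from 70 bases before to 30 bases after the annotated start, on the strand of the gene, with CTTCC in capitals, and likewise the matches of CTTTCC, of CCGGAAG and of TATAAA. They are shown so that the members that differed most and least can be compared. On GRCm38.p6 they lie at chr5:115559397-115559496 on the plus strand for Rplp0, chr17:24719993-24720092 on the plus strand for Rps2, chr9:66946016-66946115 on the plus strand for Rps27l, chr17:33824533-33824632 on the minus strand for Rps28 and chr3:90213619-90213718 on the minus strand for Rps27.
Rplp0: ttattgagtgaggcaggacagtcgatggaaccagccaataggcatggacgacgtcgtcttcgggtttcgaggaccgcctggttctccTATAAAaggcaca
Rps2: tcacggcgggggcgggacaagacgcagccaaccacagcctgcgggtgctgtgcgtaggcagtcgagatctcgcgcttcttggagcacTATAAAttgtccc
Rps27l: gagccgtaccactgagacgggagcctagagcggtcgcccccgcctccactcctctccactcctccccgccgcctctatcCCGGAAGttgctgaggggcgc
Rps28: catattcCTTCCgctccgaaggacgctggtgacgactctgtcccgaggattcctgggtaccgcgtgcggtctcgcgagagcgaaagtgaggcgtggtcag
Rps27: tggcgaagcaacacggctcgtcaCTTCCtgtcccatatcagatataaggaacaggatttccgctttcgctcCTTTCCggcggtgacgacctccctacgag
Rplp0 and Rps2, the first and the third in the order of the difference, each hold TATAAA just after the annotated start. Rps27l, next after Rps2, holds CCGGAAG. Rps28 holds CTTCC, but more than 50 bases before the annotated start and thus outside the stretch in which CTTCC was counted above. Rps27, the last, holds CTTCC and CTTTCC. Whether these letters go with the difference over the 58 members with a window was not tested. A match of letters is a description and shows no binding, and no match says only that these letters are not in this window.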

How the data were processed

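Hepatic RNA of 1 WT and 1 KO library was sequenced. The authors aligned reads with TopHat2 2.0.0 to NCBI37 (mm9), assembled transcripts with Cufflinks 1.3.0 and estimated FPKM per locus with Cuffdiff, according to the methods and the submitters' processing notes, and the FPKM values were used as deposited. The labels name paired-end and the methods single-end reads. The deposited table also holds the authors' fold changes, test statistics, p-values and q-values, none of which was used.

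Of 38016 rows, 21 marked HIDATA, which are listed at 0, were left out. Symbols were split at commas, and rows of a symbol were summed. Log2 KO/WT was computed with a pseudocount of 0.1 FPKM for genes averaging at least 1 FPKM, and folds past 1.5 were counted from the FPKM themselves. This scale understates changes of low genes. Fragments per gene were estimated from the FPKM, the length of the main GENCODE vM1 transcript and the value of 1 fragment, taken from single-exon genes of 600 to 5000 nt. Members rested on an estimated 1870 to 32100 fragments in WT and 1810 to 26300 in KO. The half-width of the 95% counting interval of a ratio was 3.57% in the median. Both maxima are those of Rps15a, whose main transcript has 3721 nt but a coding sequence of 393 nt. Where a shorter transcript is expressed, the estimate is too high and the interval too narrow. Transcript windows of 100 bases were searched on both strands of NCBIM37. All coordinates are counted from 1, and loci were wider than the annotated gene for 21 members. Biopython 1.88, matplotlib 3.10.9, scipy 1.17.1, pandas 2.3.3 and numpy 2.4.6 were used under Python 3.11.15, and the steps were tested on simulated data.

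The members and lists were chosen with earlier results of these data known. Members named were the 5 with the largest and the 5 with the smallest or opposite difference, the 5 highest and 5 lowest, those next to the 1.5-fold threshold, those within 10 Mb of Ppard, on joint loci or listed at 0, the paralogs ending in l with their partners, and Rplp0, Rplp1, Rplp2, Rpl5, Rpl11, Rps6, Rpsa and Rps19, and of other lists the 2 most abundant and the 2 with the largest ratio. Further genes, among them Rpl36, Rpl38, Rps21, Rps24, Tpt1, Mtor, Rheb, Mlst8, Sesn1, Sesn2, Sp1 and the pseudogenes, were chosen after their values were seen. Alternatives covered the scaling of the libraries, the filter, the threshold, the pseudocount and the handling of joint loci and rows. No protein sequences were used here, and the results of some genes are not reported here.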

Additional observations from a re-analysis of the deposited data

How the results depend on the processing

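No paired analysis was possible because each genotype had 1 library, and for the same reason no library could be left out. As deposited, 75 members were lower and 1 higher in KO. With equal upper quartiles (KO values times 1.17) 64 were lower and 12 higher, none was past 1.5-fold, and the medians of log2 KO/WT were -0.1117 for the members, -0.1271 for 60S, -0.0827 for 40S, -0.0421 for mitochondrial ribosomal proteins, -0.0165 for initiation factors, -0.1076 for other TOP mRNA genes, -0.1764 for the mTOR pathway and -0.1421 for transcription factors of ribosomal protein genes, while those of elongation factors (0.0037) and ribosome biogenesis (0.0204) changed sign. Centred on the all-loci median, 60 were lower and 16 higher, none was past 1.5-fold, and the same medians were -0.1002, -0.1156, -0.0711, -0.0306, -0.005, -0.0961, -0.1649 and -0.1305, again with a change of sign for elongation factors (0.0152) and ribosome biogenesis (0.0319). With equal sums of FPKM 3 members were past 1.5-fold lower. With no filter on low FPKM 2 were, the second being Rpl39l, which is listed at 0 in KO. No member was 2-fold lower, and 57 were more than 1.2-fold lower. Without the members with over 50% of windows copied, an alternative added after the data were seen, 40 were lower and 0 higher. Without the 50 most abundant other genes the members made up 4.20% of WT and 3.55% of KO FPKM. Beside these scalings and the values just given, 83 further values kept their direction, with counts within 1.5 times and medians within the interval of the median over genes. Some of these values could not change. Each member had 1 row, and all 76 expressed members were on rows marked OK and averaged at least 50 FPKM. Taking the highest row, only rows marked OK or a filter of 10 FPKM therefore repeated the main values of the members and shows nothing about their stability. With a single library per genotype, the variation between mice is unknown.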
